A study of Mus musculus with 4 samples.

Results

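The chemokine gene Cxcl12 and the genes of its receptors, Cxcr4 and Ackr3, were followed in articular chondrocytes of mice that differ in their miRNAs. These are 3 genes of the 55141 in the deposited expression table, chosen by symbol with earlier results of the same data known, among them the level of Cxcl12 in Cart-miR-23clus KO chondrocytes. The values that led to the choice are therefore given as a description, with no test. Of the 3 genes, Cxcl12 was abundant in every library, Ackr3 was found at a few reads in every library, and Cxcr4 had reads in 1 library only.

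CXCL12, also called SDF-1, is a small secreted protein that attracts cells carrying the receptor CXCR4, among them leukocytes, blood-forming stem cells and skeletal progenitors. CXCR4 signals through inhibitory G proteins, whereas ACKR3, formerly CXCR7, binds the same ligand, recruits arrestin and removes the ligand from the surroundings. In joints, CXCL12 is known as a product of synovial and bone marrow stromal cells, and CXCR4 on chondrocytes has been linked with the release of enzymes that degrade the matrix.

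Chondrocytes of 3-week-old mice had been released from the cartilage of the femoral head with collagenase and cultured in medium with fetal bovine serum, and 3′ ends of mRNAs were sequenced from 4 libraries. The WT library is labelled wild type on a C57BL/6 background. The Cart-miR-23clus KO library is from mice with Col2a1-cre and both floxed miR-23a/b clusters, a knockout that the study calls cartilage-specific. Which cells of the culture had lost the clusters was not measured here. The miR-26a KO library is from miR-26a -/- mice. The last library, miR-26a KO + miR-26a mimic, is from miR-26a -/- mice labelled C57BL6/J whose chondrocytes were transfected with a miR-26a mimic. Whether a control oligonucleotide was given to the miR-26a KO library is not stated, so that the mimic and the transfection cannot be told apart. The study's methods define the controls of the floxed mice as floxed mice without Cre. The label of the comparison library says wild type, whereas the study's account of this experiment uses both wild type and Control. The comparison library is called WT here, and its genotype was not checked.

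Each condition has 1 library. The differences have no replicate check, no p-value is given, and every interval covers counting error only. From 1328042 to 1498579 reads fell on genes, and from 15017 to 15306 genes were detected. Col2a1, which encodes type II collagen and defines chondrocytes, had from 25154 to 35871 reads. Genes of 6 miRNA precursors of the miR-23 and miR-26 families or their clusters were listed at 0 reads in every library, so that the deletions themselves were not checked here.

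Cxcl12 (ENSMUSG00000061353, chr6:117168535-117181367, plus strand, GRCm38) had 765 reads in WT, 5045 in Cart-miR-23clus KO, against 428 in miR-26a KO and 531 with the mimic. Cart-miR-23clus KO was the high library and the other 3 held from 428 to 765 reads. Its level in RPM, the reads of a gene for each 1000000 reads on genes, was 510.5 in WT (95% exact Poisson interval 475 to 548), 3799 in Cart-miR-23clus KO (3695 to 3905), against 314 in miR-26a KO (285 to 345) and 366 with the mimic (336 to 399). The intervals of miR-26a KO and of the mimic library overlapped, and no other pair did. In bulk libraries such as these, more cells that make a transcript and more of it per cell cannot be told apart.

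**Figure D1:**
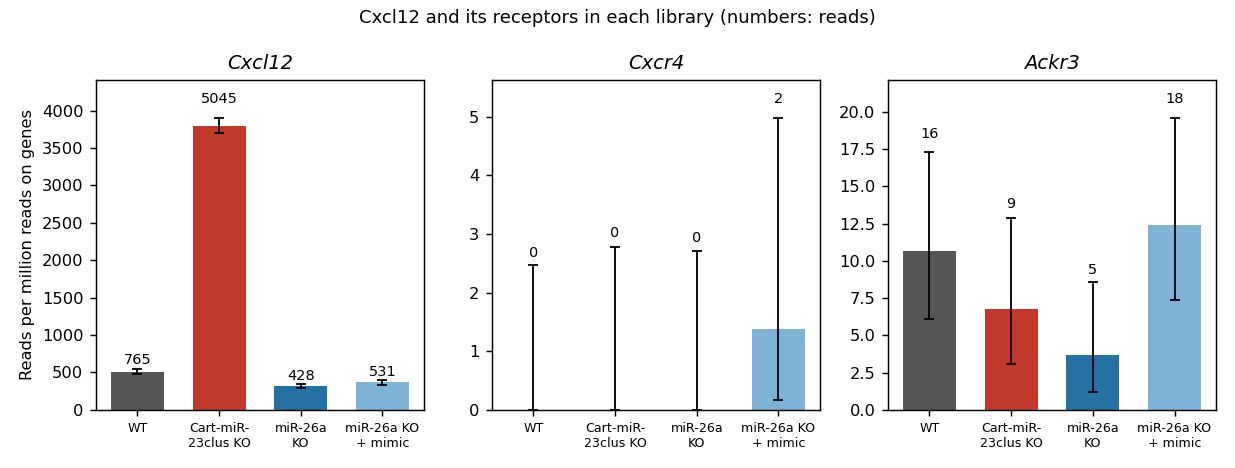
RPM (y axis, from 0) of Cxcl12, Cxcr4 and Ackr3 in each of the 4 libraries (x axis), with exact 95% Poisson intervals as error bars and the number of reads above them. Cart-miR-23clus KO stands apart for Cxcl12 with 5045 reads, Cxcr4 has 2 reads in all, and the intervals of Ackr3 overlap between the libraries.

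In TPM, the deposited unit in which reads are divided by a transcript length and scaled within the library, the level of Cxcl12 was 389.9 in WT, 2831 in Cart-miR-23clus KO, against 239.6 in miR-26a KO and 277.7 with the mimic. By this level it ranked 410 among the detected genes of WT and 44 in Cart-miR-23clus KO, against 653 in miR-26a KO and 569 with the mimic. Cxcl12 thus stood among the most abundant transcripts of all the cultures, and 0.380% of all reads on genes came from it in Cart-miR-23clus KO, against 0.0510% in WT. The length behind this TPM is the 1878 bases of the shortest coding transcript. With the 5627 bases of the longest one, a choice made after seeing the data, Cxcl12 would rank 1142 in WT and 149 in Cart-miR-23clus KO. Ratios of 1 gene between libraries do not depend on this length.

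For Cxcl12 the ratio of TPM between Cart-miR-23clus KO and WT was 7.26 (95% Clopper-Pearson interval 6.73 to 7.84), and its ratio was 11.8 (10.7 to 13.1) to miR-26a KO and 10.2 (9.32 to 11.2) to the mimic library. The level in Cart-miR-23clus KO was therefore several times that of each of the other libraries, whichever of them served as the comparison. Among the 11111 genes with at least 10 reads in Cart-miR-23clus KO and WT together, 6.61% had a ratio above 2, and 46 genes had a larger ratio than Cxcl12. Against miR-26a KO, 6.13% of 11033 genes were above 2 and 5.01% below 0.5 in Cart-miR-23clus KO, and 15 had a larger ratio than Cxcl12. The rule that chose Cxcl12 used these contrasts, and nothing is read from its place in them. Among 6935 genes with 20 or more reads in both libraries, 1 gene had a larger ratio, Gm5905, a processed pseudogene on chromosome 7 with 27 reads in WT and 181 in Cart-miR-23clus KO, named after its value was seen. Its ratio of 7.38 (4.91 to 11.5) could not be separated from that of Cxcl12, and its reads are uncertain because a pseudogene can share them with its parent gene.

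Taken against the highest of the other 3 libraries, the ratio of Cxcl12 in Cart-miR-23clus KO was larger than that of any other of the 6822 genes with at least 100 reads in all. Of these genes, 30 (0.440%) were more than 2 times above every other library in Cart-miR-23clus KO, and 57 were below 0.5 of every other library. Next in order after Cxcl12, also named after their values were seen, were Gm29216 at 4.98, Car3 at 4.96 and Zwint at 3.80. Cxcl12 was chosen with its level in Cart-miR-23clus KO known, and nothing is read from its place in this order.

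In the miR-26a libraries Cxcl12 lay below WT. The TPM ratio of miR-26a KO to WT was 0.614 (0.545 to 0.693), within the bounds of 0.5 and 2 used for counting, and 1102 of the 11107 genes compared had a smaller ratio, while 5.37% of them were above 2 and 5.67% below 0.5. The ratio of the mimic library to miR-26a KO, a comparison in which 3.47% of genes were above 2 and 3.08% below 0.5, was 1.16 (1.02 to 1.32), and the 99% interval of 0.979 to 1.37 included 1. The mimic library remained below WT, with a ratio of 0.712 (0.636 to 0.797).

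**Figure D2:**
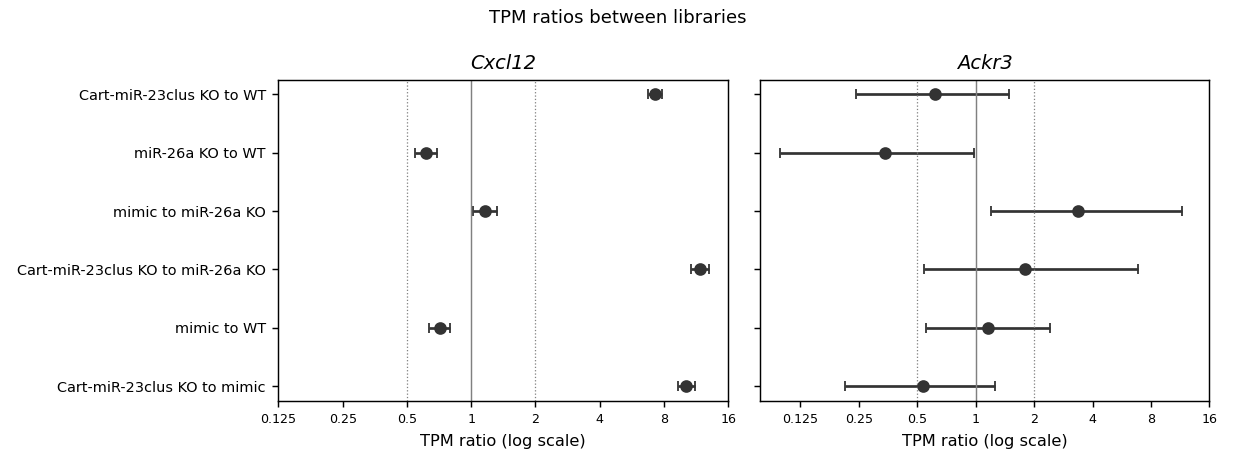
TPM ratios of Cxcl12 and Ackr3 (x axis, log scale) for the 6 pairs of libraries (y axis, the mimic library written as mimic), with 95% Clopper-Pearson intervals on reads; the solid line marks 1 and the dotted lines 0.5 and 2. The 3 ratios of Cxcl12 in Cart-miR-23clus KO to the other libraries lie from 7.26 to 11.8, whereas the intervals of Ackr3 are wide.

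The annotation gives 3 coding transcripts of Cxcl12, which share their first exons and end differently: Cxcl12-202 in the third exon, and Cxcl12-201 and Cxcl12-203 in a further exon that starts at different bases and overlaps between them. Cxcl12-202 encodes 89 codons, Cxcl12-203 encodes 93 and Cxcl12-201 encodes 119, the lengths known for the alpha, beta and gamma forms of the protein. Their 3′ UTRs, the untranslated ends in which miRNAs usually bind, hold 1487, 2768 and 5188 bases. The deposited values are 1 per gene, so the isoforms were not told apart.

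The miRNAs deleted or added in these cells include miR-23b-3p and the 5 shown here. They are shown because their seeds, bases 2 to 8 in capitals, are the part that pairs with a target. The sequences are those of RefSeq for GRCm38.p6, and the sense strand of the mimic as the labels give it is identical to miR-26a-5p.
miR-23a-3p: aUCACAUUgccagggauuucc
miR-27a-3p: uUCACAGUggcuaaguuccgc
miR-27b-3p: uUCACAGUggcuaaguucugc
miR-24-3p: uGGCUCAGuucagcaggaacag
miR-26a-5p: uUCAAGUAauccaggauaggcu

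miR-27a-3p and miR-27b-3p share a seed, and miR-24-3p is the same in both clusters. Matches of 7 bases to these seeds (AATGTGA for miR-23, ACTGTGA for miR-27, CTGAGCC for miR-24 and TACTTGA for miR-26a, searched on the transcript strand, with no 2 matches overlapping) were sought in the annotated 3′ UTRs. Cxcl12 held 4 of them, printed with the match in capitals within its neighbouring bases, since they are the stretches of this gene that pair with those seeds.
miR-23 in Cxcl12-202: accatcctggatAATGTGAgaacatgcc
miR-27 in Cxcl12-202: gaaattgtatcaACTGTGAcattatatg
miR-24 in Cxcl12-201: cattgccccgagCTGAGCCcccttggcc
miR-23 in Cxcl12-201 and Cxcl12-203: tgtctcccagatAATGTGAaaacggtcc

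The capitals lie on the plus strand of GRCm38 at chr6:117174412-117174418 for the first miR-23 match, chr6:117174963-117174969 for miR-27, chr6:117176497-117176503 for miR-24 and chr6:117181193-117181199 for the last miR-23 match. Each of the 3 transcripts thus held 1 miR-23 match, that of Cxcl12-202 being another than the one shared by Cxcl12-201 and Cxcl12-203. The last match was followed by A, which makes it an 8-base match, and stood 168 bases before the end of its UTR. No match to the miR-26a seed was found in any of the 3 UTRs.

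Such matches are frequent in long UTRs. Of 2864 genes whose longest 3′ UTR was within 20% of the length of that of Cxcl12-202, 17.5% held the miR-23 match and 18.3% the miR-27 match. For the length of Cxcl12-201, 42.9% of 917 genes held the miR-23 match, 42.6% the miR-24 match and 32.8% the miR-26a match. A match is a run of letters, and binding was not measured here. The UTRs of Cxcr4-201 (644 bases) and Ackr3-201 (1842 bases) held none of the 4 matches, where from 3.56% to 9.34% and from 12.5% to 21.7% of UTRs of like length held each of them.

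Cxcr4 (ENSMUSG00000045382, chr1:128588199-128592293, minus strand), the signalling receptor, had 2 reads in the mimic library and 0 in each of the other 3. A count of 0 allows a level of up to 2.00 RPM in WT, 2.26 in Cart-miR-23clus KO and 2.20 for miR-26a KO, taken as 3 reads. All 4 libraries were at or under this limit, so no ratio was taken. A difference between levels of Cxcr4 near or under this limit was not detectable at this depth. Cxcr4 entered none of the comparisons between libraries because it did not reach 10 reads in any pair.

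Ackr3 (ENSMUSG00000044337, chr1:90203980-90216751, plus strand), the scavenging receptor, had 16 reads in WT, 9 in Cart-miR-23clus KO, against 5 in miR-26a KO and 18 with the mimic. Its TPM levels were 5.00, 3.09, 1.71 and 5.77 in the same order. The order of the libraries was thus another than for Cxcl12, with Cart-miR-23clus KO in the middle, and all 4 Poisson intervals of the levels overlapped.

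The TPM ratio of Ackr3 in Cart-miR-23clus KO to WT was 0.619, with an interval of 0.241 to 1.49 that included 1. In miR-26a KO to WT it was 0.343 (0.0983 to 0.980), one of the 5.67% of genes below 0.5, and in the mimic library to miR-26a KO it was 3.36 (1.20 to 11.6), one of the 3.47% of genes above 2. Both of these intervals included 1 at 99%, with limits of 1.29 and 0.926, and both rest on the 5 reads of the miR-26a KO library. The mimic library against WT gave 1.15 (0.556 to 2.42). At this depth an unequal level of Ackr3 was not shown between any 2 libraries at 99%.

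Per length, the level of the ligand was above that of both receptors. The TPM of Cxcl12 was 78.0 times that of Ackr3 in WT (47.7 to 137), 915 times in Cart-miR-23clus KO (482 to 2002), against 140 times in miR-26a KO (59.4 to 432) and 48.1 times with the mimic (30.2 to 81.9). The interval of Cart-miR-23clus KO lay above those of the other 3, which overlapped. This repeats the level of Cxcl12 that led to its choice, since an unequal level of Ackr3 was not shown. The ratios of Cxcl12 to Ackr3 rest on the 1878 bases set for Cxcl12. With the 5627 bases of Cxcl12-201 they would be 26.0 in WT, 305 in Cart-miR-23clus KO, 46.6 for miR-26a KO and 16.1 with the mimic. Against the level that 3 reads of Cxcr4 would give, the TPM of Cxcl12 was 245 times as high in WT, 1616 times in Cart-miR-23clus KO and 137 times for miR-26a KO, or 81.8, 539 and 45.8 times with the longer transcript.

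No other annotated gene overlaps Cxcl12, Cxcr4 or Ackr3, so that reads of an overlapping or antisense gene did not enter their counts. Of the genes within 1 Mb of Cxcl12, 10 had enough reads to compare Cart-miR-23clus KO with WT. None of them had a TPM ratio above 2, where 6.61% of all genes had one, and 1 was below 0.5, where 6.33% were, Rassf4 with 8 reads in WT and 3 in Cart-miR-23clus KO. The ratios of these neighbours ran from 0.413 to 1.52, with a median of 1.09. Near Ackr3 5 genes were compared and 1 was below 0.5, Ramp1 with 12 reads and 2 reads. These counts come from 10 and 5 genes, too few to be set against the shares over all genes.

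Chemokine ligands are small secreted proteins that guide cells, and 35 of the 37 sought were found by symbol, 13 of them at 0 in every library. Cxcl12 came first of them by TPM in all 4 libraries. It made up 84.0% of the summed TPM of these ligands in WT, 94.4% in Cart-miR-23clus KO, but 75.1% in miR-26a KO and 71.8% with the mimic. Without Cxcl12 the sum was 74.1 TPM in WT, 167 in Cart-miR-23clus KO, against 79.4 in miR-26a KO and 109 with the mimic, so that Cart-miR-23clus KO was also the highest library for the rest of the family.

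Of 11 ligand genes compared between Cart-miR-23clus KO and WT, 8 had a TPM ratio above 2 and 1 was below 0.5, where 6.61% and 6.33% of all genes compared were, and their median log2 ratio was 1.54 against -0.01 over all genes. Of the 8, Cxcl12 had been chosen for this level, and 5 (Ccl2, Ccl4, Ccl6, Ccl7 and Cxcl5) had fewer than 10 reads in WT and met the minimum only through the high library, so that their count is partly set by the filter. With 20 or more reads required in both libraries, 2 ligands remained, Cxcl12 and Cx3cl1, both above 2. The list includes Cxcl12 itself, and it was written with results of these data known. Ccl7, which attracts monocytes, had 6 reads in WT, 24 in Cart-miR-23clus KO, against 11 in miR-26a KO and 14 with the mimic, and a ratio of 4.40 (1.75 to 13.2). Cxcl5, which attracts neutrophils, had 5, 15, 4 and 3 reads and a ratio of 3.30 (1.14 to 11.6). Cx3cl1, the membrane-bound fractalkine, had 41, 79, 44 and 79 reads and a ratio of 2.12 (1.44 to 3.17). For Cx3cl1 the mimic library was as high as Cart-miR-23clus KO in reads, unlike for Cxcl12.

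The other ligands above 2, named after their values were seen, were Ccl9 with 16 and 45 reads in WT and Cart-miR-23clus KO, Ccl2 with 2 and 13, Ccl4 with 3 and 8, and Ccl6 with 1 and 10. The ratio of Ccl9 was 3.10 (1.72 to 5.87), and those of the other 3 have wide intervals, as for Ccl6 at 11.0 (1.57 to 478). Cxcl14 was the ligand below 0.5, with 8 reads in WT and 3 in Cart-miR-23clus KO, a ratio of 0.413 whose interval of 0.0705 to 1.72 included 1. Pf4, a product of platelets and macrophages, had 12 and 9 reads, and Cxcl16 had 12 and 17.

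Macrophages are a known source of several of these ligands. Of 9 compared macrophage and leukocyte markers none was above 2 or below 0.5 in Cart-miR-23clus KO to WT, with a median log2 ratio of 0.39 and with Csf1r and Adgre1 at 1.98, just under the bound. In Cart-miR-23clus KO to miR-26a KO, where the ratio of Cxcl12 was 11.8 and 6.13% of all genes were above 2, all 9 markers were above 2, with a median log2 ratio of 1.53. Of these, 4 (Adgre1, Tyrobp, Cd52 and Cd14) had fewer than 10 reads in miR-26a KO and met the minimum only through the high library, and with 20 or more reads in both libraries 4 of 4 markers were above 2. Their summed TPM was 947 in WT, 1166 in Cart-miR-23clus KO, against 364 in miR-26a KO and 682 with the mimic. Lyz2, the most abundant of them, had 712, 633, 222 and 396 reads. In miR-26a KO to WT, where Cxcl12 was also lower, 7 of the 9 markers were below 0.5, against 5.67% of all genes, and in the mimic library to miR-26a KO 4 of 9 were above 2, against 3.47%. With 20 or more reads in both libraries the last 2 counts were 2 of 4 and 0 of 4. The part of these cells in the levels of Cxcl12 and of the other ligands was not tested.

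**Figure D3:**
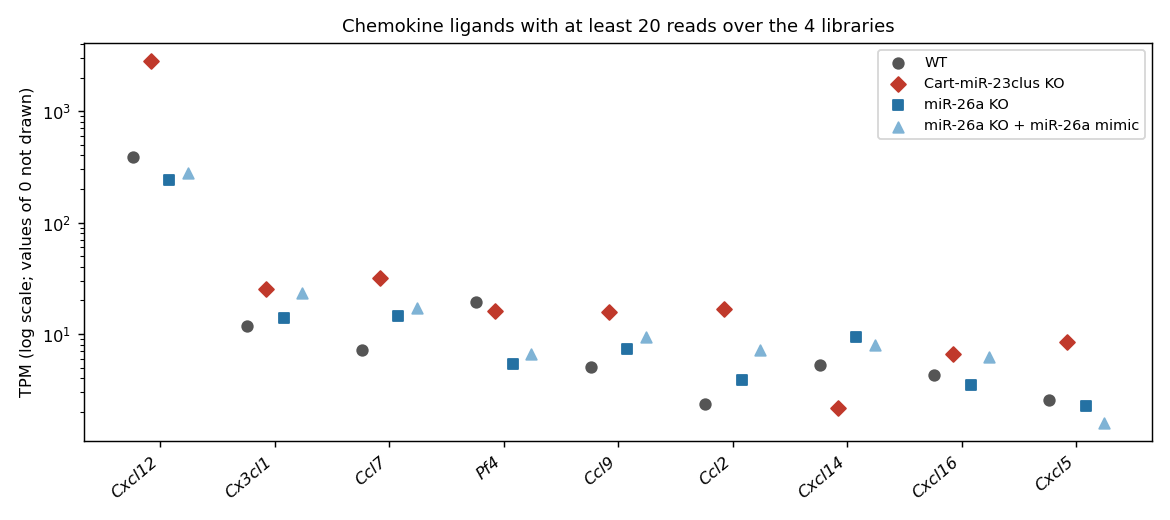
TPM (y axis, log scale) of the chemokine ligands with at least 20 reads over the 4 libraries (x axis, in the order of their mean), with a symbol for each library. Cxcl12 lies above all other ligands in every library, and Cart-miR-23clus KO is the highest library for each ligand drawn but Pf4 and Cxcl14. Cxcl5 and Ccl2 reach 20 reads only through Cart-miR-23clus KO, so that its place for them is partly set by this minimum.

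All 23 chemokine receptor genes sought were found, and 15 of them were at 0 in every library. Cx3cr1, the receptor of Cx3cl1 and a gene of macrophages, ranked first by TPM in every library but the mimic one, with 20, 28 and 9 reads in WT, Cart-miR-23clus KO and then miR-26a KO, and Ackr3 came second. In the mimic library Ackr3 came first with 18 reads and Cx3cr1 second with 14. The receptors summed to no more than 11.7 TPM in any library, against at least 319 TPM of the ligands. Cx3cr1 and Ackr3 were the 2 receptors with enough reads to compare Cart-miR-23clus KO with WT, and the ratio of Cx3cr1 was 1.54 (0.838 to 2.89).

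Both other ligands of these receptors that could be compared lay between 0.5 and 2 in Cart-miR-23clus KO to WT. Mif, a cytokine that also binds CXCR4 and ACKR3, had 402 reads in WT, 352 in Cart-miR-23clus KO, against 301 in miR-26a KO and 452 with the mimic. Its ratio for Cart-miR-23clus KO to WT was 0.964 (0.833 to 1.12). Adm, the precursor of adrenomedullin, another peptide that ACKR3 takes up, had 128, 185, 195 and 169 reads and a ratio of 1.59 (1.26 to 2.01). Of 5 genes of this list, 3 were found by symbol and 2 had enough reads.

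Secreted CXCL12 is inactivated by proteases that remove its first residues. Dpp4, the main such enzyme, had no more than 1 read in any library, Mmp9 had no more than 1, and Ctsg and Elane were at 0. Mmp2 had 522 reads in WT, 271 in Cart-miR-23clus KO, against 317 in miR-26a KO and 427 with the mimic, with a TPM ratio of 0.572 (0.492 to 0.663) in Cart-miR-23clus KO to WT. Mmp14, which activates MMP2, had 483, 325, 373 and 335 reads and a ratio of 0.741 (0.642 to 0.854). Both were lower in Cart-miR-23clus KO than in WT beyond counting error, and neither was below 0.5.

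CXCL12 is held in the matrix by heparan sulfate. All 13 genes of heparan sulfate carriers and synthesis were compared, none was above 2 in Cart-miR-23clus KO to WT, 1 was below 0.5, where 6.33% of all genes were, and the median log2 ratio was 0.22. The low one was Gpc1, a glypican at the cell surface, with 733 reads in WT, 231 in Cart-miR-23clus KO, against 417 in miR-26a KO and 612 with the mimic. Its ratio of 0.347 (0.298 to 0.403) was opposite in direction to that of Cxcl12 in Cart-miR-23clus KO. Gpc4 was at 0.578 (0.419 to 0.791) and the syndecan Sdc2, the most abundant carrier, at 0.770 (0.697 to 0.851). The highest ratios were those of the syndecan Sdc4 at 1.45 (1.25 to 1.69), of the basement membrane proteoglycan Agrn at 1.45 (1.00 to 2.12) and of Ndst1, an enzyme of heparan sulfate synthesis, at 1.40 (1.16 to 1.68).

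Behind the receptors stand G proteins, arrestins and the proteins that switch receptors off. Of 17 compared genes, 2 were above 2 and 2 below 0.5 in Cart-miR-23clus KO to WT, where 6.61% and 6.33% of all genes were, with a median log2 ratio of -0.07. With 20 or more reads in both libraries the counts were 0 and 1 of 10. Rgs4, which shortens the signal of inhibitory G proteins, had 11 reads in WT, 38 in Cart-miR-23clus KO, against 16 in miR-26a KO and 9 with the mimic, and a ratio of 3.80 (1.91 to 8.25). Gnai3, an inhibitory G protein, had 98, 33, 65 and 56 reads and a ratio of 0.371 (0.242 to 0.555). The more abundant Gnai2 was at 0.903 (0.831 to 0.981). The other 2, named after their values were seen, were Rgs1 with 3 reads in WT and 13 in Cart-miR-23clus KO and Rgs16 with 10 and 1. Rgs2 was at 1.50 (1.20 to 1.88) and Itch, the ligase that sends CXCR4 for degradation, at 0.551 (0.268 to 1.08).

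Among 16 compared kinases and effectors downstream of CXCR4, none was above 2 and 1 was below 0.5 in Cart-miR-23clus KO to WT, with a median log2 ratio of -0.06. This is near the shares of 6.61% and 6.33% over all genes, and with 20 or more reads in both libraries no gene of 13 was past either bound. The low one was the kinase Src, with 22 reads in WT and 8 in Cart-miR-23clus KO, a ratio of 0.400 (0.154 to 0.934). The adaptor Crk was at 0.533 (0.267 to 1.02) and the kinase subunit Pik3ca at 0.616 (0.430 to 0.874). The highest were the GTPase Rac2 of blood cells at 1.89 (0.685 to 5.66), Pik3cb at 1.38 (0.778 to 2.46) and Rhoa at 1.21 (1.05 to 1.39). The machinery downstream of the receptor was thus detected, with Cdc42, its most abundant member, at 959 reads in WT and 1003 in Cart-miR-23clus KO.

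**Figure D4:**
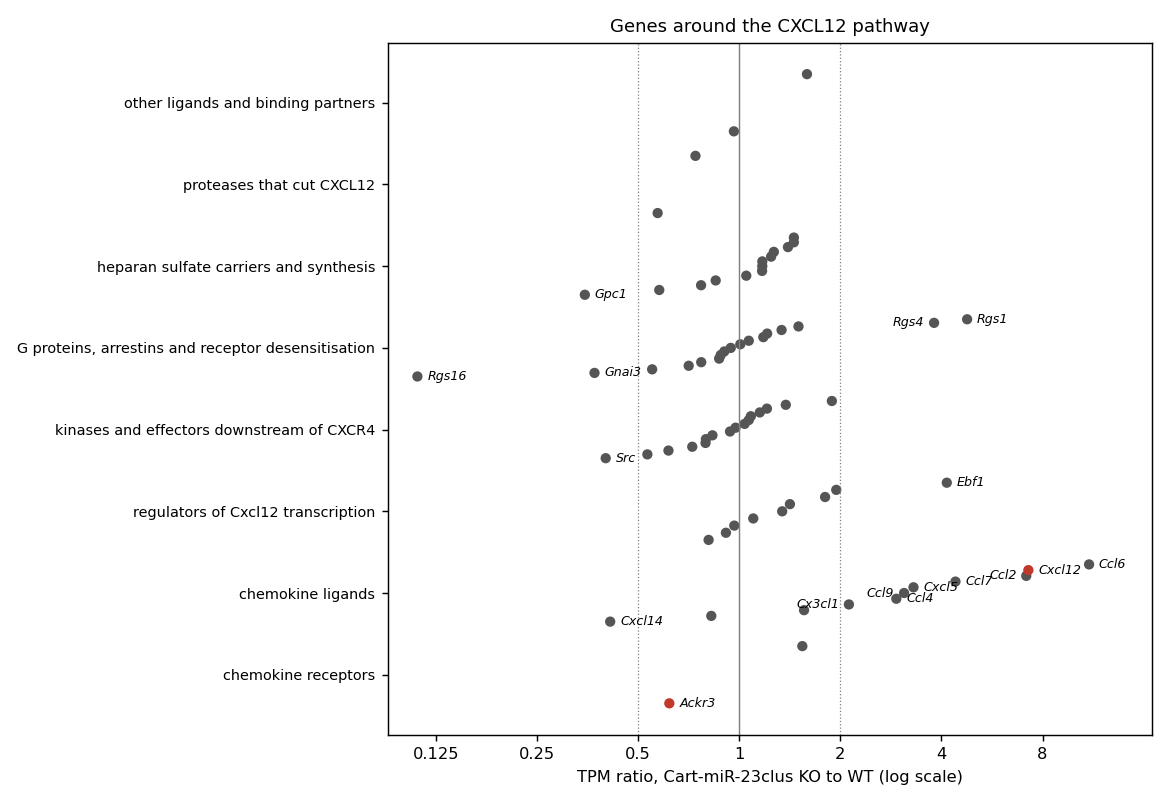
Ratio of TPM in Cart-miR-23clus KO to WT (x axis, log scale) of each gene with at least 10 reads in both libraries together, by pathway list (y axis, genes spread by their ratio within a list); Cxcl12 and Ackr3 are in red, and genes above 2 or below 0.5 (dotted lines) are named. In these 8 pathway lists, which leave out the cell type markers, ratios above 2 are found in the chemokine ligands, where 8 of 11 lie there, and at Ebf1, Rgs1 and Rgs4, but 5 of the 8 and Rgs1 met the read minimum only through Cart-miR-23clus KO, and 2 of 2 ligands lie there with 20 or more reads in both libraries.

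Of 9 compared genes known to regulate the transcription of Cxcl12, 1 was above 2 and none below 0.5 in Cart-miR-23clus KO to WT, near the shares of 6.61% and 6.33% over all genes, with a median log2 ratio of 0.40. That gene was Ebf1, a transcription factor of B cells, adipocytes and marrow stromal cells, with 26 reads in WT, 98 in Cart-miR-23clus KO, against 34 in miR-26a KO and 30 with the mimic. Its ratio was 4.15 (2.67 to 6.66), and Cart-miR-23clus KO was the high library, as for Cxcl12. Epas1, which encodes the hypoxia factor HIF-2 alpha, had 30, 53, 57 and 52 reads and a ratio of 1.95 (1.22 to 3.15), but was as high in both miR-26a libraries. Runx1 was at 1.80 (1.03 to 3.21), Hif1a at 0.811 (0.681 to 0.965), Foxc1 at 0.913 (0.787 to 1.06) and Nfkb2 at 0.967 (0.600 to 1.55).

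Because CXCL12 is known from stromal cells of the marrow, markers of such cells and of other cells of the joint were examined. Of 7 compared markers of Cxcl12-rich stromal cells, 2 were above 2 in Cart-miR-23clus KO to WT, against 6.61% of all genes, and 1 of 4 with 20 or more reads in both libraries. Their summed TPM ran from 91.2 in miR-26a KO to 142 in Cart-miR-23clus KO. Vcam1, an adhesion molecule, had 28 reads in WT, 79 in Cart-miR-23clus KO, against 18 in miR-26a KO and 27 with the mimic. Kitl, the stem cell factor, had 3, 37, 7 and 13 reads, which gives a ratio of 13.6 (4.30 to 68.8). Lepr, the defining marker of these cells in adult marrow, was at 0 in every library, and Foxc1, the most abundant marker of the list, did not share the pattern of Cxcl12. The part of such cells in the level of Cxcl12 was not tested.

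Most of the compared osteoblast markers went the other way. Of 8 compared osteoblast markers, 6 were below 0.5 and 1, Spp1, above 2 in Cart-miR-23clus KO to WT, against 6.33% and 6.61% of all genes, and their summed TPM was 12753 in WT, 3883 in Cart-miR-23clus KO, against 6691 in miR-26a KO and 7557 with the mimic. Col1a1, the most abundant of them, had 39203, 7378, 15172 and 19286 reads. WT was the highest library for this sum, and 3 of the 8 compared markers were highest elsewhere, Spp1 in Cart-miR-23clus KO and Runx2 and Bglap with the mimic. For Cxcl12 WT was the second highest library. Of the 6 osteoblast markers below 0.5, Ifitm5 had 34 reads in WT and 0 in Cart-miR-23clus KO and met the minimum only through WT. Bglap had 98 and 15 reads, so neither of these markers reached 20 reads in both libraries. Of the chondrocyte markers 2 of 11 were below 0.5 and 1 above 2, against the same shares, with a summed TPM of 15273 in WT, 10633 in Cart-miR-23clus KO, 11092 for miR-26a KO and 10862 with the mimic. All 3 modified libraries thus had a lower sum than WT. The fibroblast markers, led by Dcn, had 1 of 6 below 0.5, against 6.33% of all genes and 0 of 3 with 20 or more reads in both libraries, and a summed TPM of 2246 in WT, 1680 in Cart-miR-23clus KO, against 2610 in miR-26a KO and 2386 with the mimic.

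Of 6 adipocyte markers 2 had enough reads, and 1 was above 2 in Cart-miR-23clus KO to WT, against 6.61% of all genes. This was Fabp4, a fatty acid carrier also found in endothelial cells and macrophages, which had 57 reads in WT, 223 in Cart-miR-23clus KO, against 66 in miR-26a KO and 105 with the mimic. Adipoq, which defines mature adipocytes, had 8, 9, 1 and 0 reads and a ratio of 1.24 (0.424 to 3.69), and Lep was at 0. The endothelial markers Cdh5, Tek, Cldn5 and Ptprb were at 0 in every library and Pecam1 had 1 read in Cart-miR-23clus KO. The summed TPM of the endothelial list, from 15.6 in WT to 31.9 in Cart-miR-23clus KO, came nearly all from Egfl7. The part of the bone, fat and connective tissue cells in the level of Cxcl12 was not tested.

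Genes with a like pattern over the 4 libraries were sought among the 6822 genes with at least 100 reads in all, by the distance between centred values of log2(TPM + 0.5). The nearest was Car3, a carbonic anhydrase of muscle and fat, at a distance of 0.92, with 126 reads in WT, 568 in Cart-miR-23clus KO, against 95 in miR-26a KO and 52 with the mimic. It was followed by Gm29216 (ENSMUSG00000101249), an unprocessed pseudogene on chromosome 1 whose reads are uncertain, at 1.26, with 16, 144, 29 and 15 reads. H19, an imprinted noncoding RNA, stood at 1.34 with 1578, 3109, 331 and 421 reads. Zwint, a kinetochore protein gene, also stood at 1.34, with 58, 273, 72 and 77 reads, and Vcam1 at 1.36.

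All 5 were highest in Cart-miR-23clus KO. By TPM, H19, Car3 and Vcam1 also lay below WT in both miR-26a libraries, as Cxcl12 did. For Vcam1 the mimic library was only just below, with 7.64 TPM against 7.73 in WT. Over 4 libraries many patterns are close by their 1 high library, and nothing is drawn from this likeness. None of these 5 genes was among the 5 nearest by Pearson correlation. With 3.56 on the log2 scale, the range of Cxcl12 between its lowest and highest library was exceeded by 12 of the 6822 genes. This range includes the level that led to the choice of Cxcl12, and nothing is read from its place. The receptors had too few reads for such a search.

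**Figure D5:**
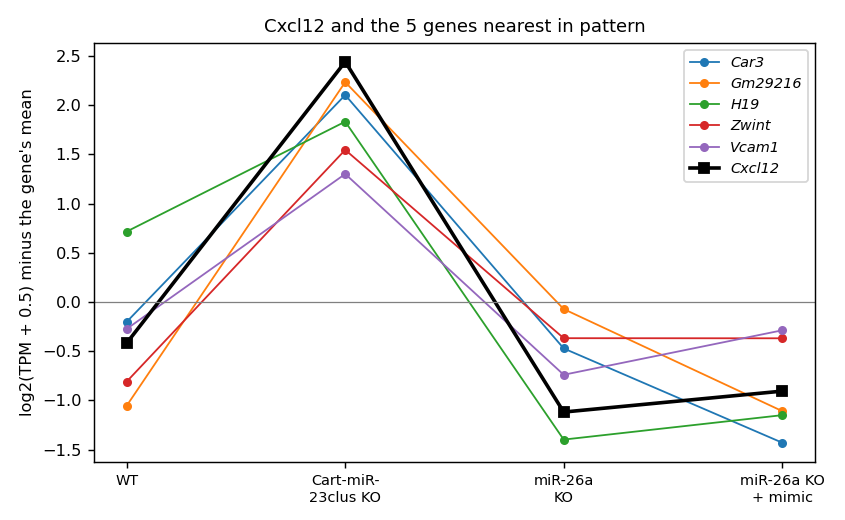
Values of log2(TPM + 0.5) after subtraction of the gene's mean (y axis) in the 4 libraries (x axis) for Cxcl12 (black squares) and the 5 genes nearest to it; lines join the values of 1 gene. All 6 genes are highest in Cart-miR-23clus KO. Cxcl12, H19, Car3 and Vcam1 are lower in miR-26a KO and the mimic library than in WT, Vcam1 only just in the mimic library. By Pearson correlation 0 of these 5 genes were among the nearest 5.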

How the data were processed

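Chondrocyte RNA from 4 libraries, 1 per condition as given by the labels, was read by the study as single-end 75-base QuantSeq 3′ reads and mapped to mm10 (GRCm38.p6). The aligner, the counter and the annotation are not given in the sources used here. The deposited estimated count of a gene is a whole number of reads made by the authors without normalization, for 3 libraries. The deposited TPM, made by the authors for all 4, are those reads divided by 1 length per gene and scaled within the library. These lengths equalled an annotated GENCODE M21 transcript for 99.2% of 17867 genes. Dividing 3′ reads by length can distort comparisons between genes. Reads of the mimic library were recovered from its TPM: 14429 of 14429 values were whole within 0.0001, and 21 further genes were not recovered.

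Ratios are of deposited TPM. Genes with at least 10 reads in both libraries together were counted above 2 or below 0.5. Intervals on reads are exact at 95% (Poisson or Clopper-Pearson), and a count of 0 was taken to allow 3 reads. They cover counting error only, since each condition has 1 library. The reads carry no molecular identifiers in these files, so repeated reads of 1 molecule were not removed and the intervals may be too narrow. No test was made, because 1 library per condition leaves no replicate error. Likeness of pattern used genes with at least 100 reads in all and 0.5 TPM added. Matches to miRNA seeds were searched in the 3′ UTRs of GENCODE M21 transcripts.

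The genes and lists were chosen with earlier results of these data known. The genes named are Cxcl12, Cxcr4 and Ackr3, up to 3 genes with the largest and 3 with the smallest ratio of Cart-miR-23clus KO to WT per pathway list among those with at least 20 reads in these libraries and miR-26a KO together, the 3 chemokine ligands and receptors with the highest mean TPM, the 5 genes nearest in pattern, and the most abundant and the absent markers. Alternatives were CPM, TMM factors of edgeR 4.0.16, size factors of DESeq2 1.42.0, other filters, added TPM, Pearson correlation, 99% intervals and 8-base matches. The steps were tested on simulated data. The work was done in R 4.3.3 and Python 3.11.15 with scipy 1.17.1, pandas 2.3.3, numpy 2.4.6 and matplotlib 3.10.9.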

Additional observations from a re-analysis of the deposited data

Results flagged for a closer look

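Cxcl12 lay on opposite sides of WT in the libraries of the 2 knockouts. Its TPM ratio to WT was 7.26 in Cart-miR-23clus KO but 0.614 in miR-26a KO, so that the single library of each genotype moved in a different direction from the same WT library. The difference was not tested, because each genotype has 1 library and both ratios share the WT library. The ratio taken directly between the knockouts, 11.8, does not involve WT.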

How the results depend on the processing

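No paired analysis was possible because there is only 1 library of each condition. With CPM, TMM factors, DESeq2 size factors or 0.5 TPM added, all 48 ratios of Cxcl12 and Ackr3 so recomputed stayed within their intervals. Counts of genes above 2 and below 0.5 moved with the filter on reads. Without a filter they were 1397 and 1092 for Cart-miR-23clus KO to WT, 1185 and 1020 for miR-26a KO to WT, 707 and 993 for the mimic library to miR-26a KO, and 1369 and 893 for Cart-miR-23clus KO to miR-26a KO. With at least 20 reads in each library they were 143 and 102, 112 and 57, 14 and 13, and 83 and 79 in the same order. By reads without division by length, Cxcl12 ranked within the top 1.71% of detected genes in WT and 0.118% in Cart-miR-23clus KO. With the length of Cxcl12-203, an alternative chosen after seeing the data, it ranked within the top 4.35% in WT, 0.526% in Cart-miR-23clus KO, 6.93% for miR-26a KO and 6.16% with the mimic, and with that of Cxcl12-201 within 7.53%, 0.980%, 11.5% and 10.4%. It stayed first of the chemokine ligands with both lengths. Of the 5 genes nearest in pattern, 0 were among the 5 nearest by Pearson correlation and 3 when 20 reads were required in every library. An 8-base match to miR-24 was found 0 times in the longest UTR of Cxcl12. Of the values of lists recomputed under the alternatives, 470 stayed and 49 moved, 40 of the latter with 20 reads required in each library. For Cart-miR-23clus KO to WT that filter left 2 of 2 ligands above 2, 0 of 10 G protein genes above 2, and 0 of 13 effectors and 0 of 3 fibroblast markers below 0.5. For miR-26a KO to WT it left 2 of 4 macrophage markers below 0.5, and for the mimic library 0 of 4 above 2. Depth limits Cxcr4 and Ackr3, with at most 18 reads in a library.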
